A study of Mus musculus with 6 samples.

Results

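The genes described here are interferon regulatory factors (IRFs) and 2 proteins that work beside them in interferon responses: Irf1, Irf2, Irf3, Irf5, Irf7, Irf9, Batf2 and Nmi. They were taken by gene symbol, and all 8 were found, each as 1 row, among the 14701 genes of every table. RNA was sequenced from IEC 4.1, a mouse cell line whose label is intestinal epithelium. The 3 control libraries (replicates 2, 3 and 4) came from cells without interferon-gamma, and the 3 treated libraries (replicates 1, 2 and 4) from cells exposed for 6 h to interferon-gamma at a dose of 10 ng/ml. Both groups were grown to the same confluence and carried no other labelled treatment or allele. No time was labelled for the controls. No source used here says that the libraries are from separate cultures, and the p-values therefore measure only the spread between these libraries, which may be technical.

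IRFs share an amino-terminal DNA-binding domain marked by conserved tryptophans, which reads GAAA repeats in the interferon-stimulated response element (ISRE). Interferon-gamma signals through its receptor and the kinases Jak1 and Jak2 to genes that carry a gamma-activated site (GAS), and Irf1 is a classic direct target that carries the signal on to a further set of genes. IRF2 binds the same elements as IRF1 and often opposes it, IRF9 binds STAT2 in the complex ISGF3, and IRF3, IRF5 and IRF7 are switched on by phosphorylation downstream of nucleic acid and Toll-like receptors. BATF2 is a basic leucine zipper protein that can pair with JUN and act with IRF1 in macrophages, and NMI is an interferon-inducible protein that binds STATs and the related protein IFI35.

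Depth was 17490689 to 18678543 estimated counts per library. The label was checked against marker genes. Of 12 epithelial markers 8 had a row, none exceeded 0.533 CPM (counts scaled to the effective library size) in any library, and Epcam and Cdx2 had no row in the tables analysed here. The mesenchymal markers summed to 5130 to 5360 CPM in controls and 5050 to 5430 CPM with interferon-gamma. Vim and Col1a1 made up most of that sum and moved in opposite directions (log2 fold changes 0.30 and -0.33), and of the 7 markers tested 2 were called higher and 5 lower, Pdgfra by -0.65 and Pdgfrb by -0.60. Their part in the results below was not tested. Leukocyte markers summed to 2.27 to 3.04 CPM in controls and 1.77 to 2.45 CPM in treated libraries, and endothelial markers to at most 0.53 CPM. The defining epithelial markers are therefore near 0 in cells labelled as epithelium. None of the genes in these tables was at 0 in all 3 controls, so a gene silent in untreated cells has no values here.

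The promoters of Irf1 and Irf2 are shown because, of the members with a window, these alone held a motif of either kind. Windows of 250 bases before and 50 after the start site, from RefSeq (GRCm38.p6), were matched for 7 of the 8 genes (9 windows, as Irf1 and Irf9 have more than 1 start), with none for Batf2. The motifs searched on both strands were GAS, TTCNNNGAA, and ISRE, which is GAAA, any 2 bases and GAAA again. The matches found do not overlap each other. The Irf1 window with its start at 53770473 held no match. The Irf1 sequence covers chr11:53769764-53770013 (plus strand), the 250 bases before the start at 53770014. The Irf2 sequence covers the 120 bases of chr8:46739495-46739614 (plus strand), upstream of the start at 46739745. Capitals mark the matches, a GAS in Irf1, and an ISRE followed by a GAS in Irf2.
Irf1: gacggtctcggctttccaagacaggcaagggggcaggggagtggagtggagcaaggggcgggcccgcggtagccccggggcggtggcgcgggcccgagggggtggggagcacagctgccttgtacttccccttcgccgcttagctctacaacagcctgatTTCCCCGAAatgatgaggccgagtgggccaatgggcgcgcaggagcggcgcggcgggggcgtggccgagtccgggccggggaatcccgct
Irf2: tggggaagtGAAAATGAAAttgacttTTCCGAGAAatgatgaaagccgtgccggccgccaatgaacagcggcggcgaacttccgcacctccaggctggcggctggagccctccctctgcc
The Irf1 GAS begins 90 bases before the start site. In Irf2 the ISRE begins 241 bases and the GAS 224 bases before it. Among all 32851 windows of this length, 8.3% held the GAS letters, 3.44% the ISRE letters and 0.454% both. A match is only a match of letters, and no binding was measured here.

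Interferon-gamma raised 7 of the 8 genes, and Irf3 alone passed no test. With edgeR's quasi-likelihood test and an adjusted p under 0.05 over all 11423 genes tested, 38.1% of all genes were called, 19.9% higher (2278) and 18.1% lower (2069). On total counts without TMM scaling that split was 1644 higher and 3124 lower, with upper-quartile scaling it was 1775 and 2823, and under both the number of members called higher was again 7. Of the 8 genes none was called lower by edgeR, DESeq2 or limma-voom, and the number lower at an unadjusted p under 0.05 in edgeR was also 0. Batf2 passed the filter on low counts only through its treated libraries, so it could be called in 1 direction only, and without it 6 of 7 genes were called higher. Rises of at least 2-fold were seen for 6 of the 8, against 4.03% of all genes, and of at least 4-fold for 5, against 1.99%. The library values of the groups did not overlap for 7 of the 8, against 24.7% of all genes on the higher side and 48.0% in either direction. Against nulls of 1.5-fold and 2-fold (glmTreat), 6 and 5 members were called higher, beside 4.69% and 2.99% of all genes. The median log2 fold change over the 8 was 2.76, beside 0.0095 over all genes tested. Batf2 is included in the 2-fold, 4-fold, no-overlap and glmTreat counts and in this median. The 8 genes were chosen with earlier results of these data known, so all counts of members here are a description. In bulk RNA, more expressing cells and more RNA per cell cannot be told apart.

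**Figure D1:**
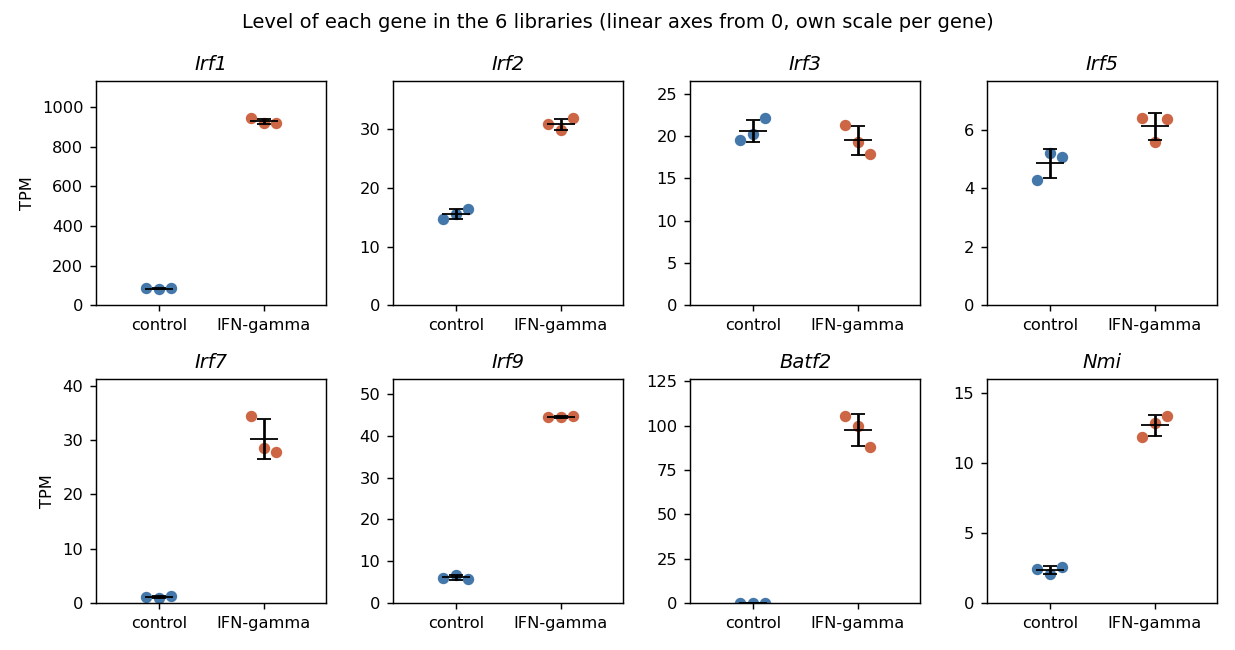
Level of each gene in TPM (transcripts scaled for length and library, vertical axis, linear from 0) in the 3 control (blue) and 3 interferon-gamma (orange) libraries, with the mean (horizontal line) and SD (bar). In 7 panels the groups are apart, from Irf5 (4.28 to 5.21 against 5.6 to 6.4 TPM) to Irf1 (81.2 to 85.5 against 921 to 943 TPM), and in the Irf3 panel they overlap.

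Irf1 (NCBI Gene 16362, chromosome 11, 53770014 to 53778374, plus strand, GRCm38.p6), the early activator of the response, was the most abundant member in both groups. It stood at 85.4, 81.2 and 85.5 TPM in control replicates 2, 3 and 4. In treated replicates 1, 2 and 4 it stood at 943, 921 and 922 TPM. The lowest treated library was thus far above the highest control, and the values within a group lay close together. The fold change was 11.9 (95% interval 11.1 to 12.9, limma-voom), a log2 fold change of 3.58 ± 0.048 (SE between replicates, n = 3 per group, edgeR adjusted p = 6.06e-22). Untreated cells were not devoid of Irf1: its 84.0 ± 2.42 TPM (SD, n = 3) exceeded the level of 86.8% of all genes in the tables, and the treated level exceeded 98.8%. Of 1000 tested genes that the authors' deposited table annotates as transcription factors, Irf1 ranked 63rd by TPM in controls and 2nd with interferon-gamma.

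Irf2 (NCBI Gene 16363, chromosome 8, 46739745 to 46847458, plus strand), the usual antagonist of IRF1, rose much less. Its control values were 14.7, 15.5 and 16.5 TPM, and its treated values 30.8, 29.9 and 31.9 TPM, with no overlap. The fold change was 2.12 (95% interval 1.92 to 2.34), a log2 fold change of 1.08 ± 0.046 (edgeR adjusted p = 1.89e-11). Against a null of at most a 2-fold change (glmTreat) the rise was not called (adjusted p = 0.881).

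Because both genes rose unequally, the balance between them moved. The ratio of Irf1 to Irf2 in TPM, which does not depend on scaling between libraries, was 5.81, 5.24 and 5.19 in the controls. With interferon-gamma it was 30.6, 30.8 and 29. Every treated library was above every control, and the ratio rose 5.57-fold, by 2.48 ± 0.059 on the log2 scale. The exact two-sided permutation test of this ratio gave p = 0.1, the smallest value that 3 against 3 libraries allow, and 0.1 after Benjamini-Hochberg adjustment over the 3 ratios tested.

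Among the IRFs activated by phosphorylation, the response was split. Irf7 (NCBI Gene 54123, chromosome 7, 141263183 to 141266499, minus strand), the amplifier of type I interferon production, was low in controls at 1.09, 0.82 and 1.26 TPM, from 20, 14 and 22 counts. It reached 34.4, 28.5 and 27.7 TPM with interferon-gamma, every library far above the controls. The fold change was 30.4 (95% interval 22.2 to 41.4), a log2 fold change of 4.93 ± 0.19 (edgeR adjusted p = 1.87e-17). The interval is wider than that of Irf1, which had many more counts.

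Irf3 (NCBI Gene 54131, chromosome 7, 44997648 to 45002848, plus strand), which is stored in the cytoplasm until it is phosphorylated, was at 19.5, 20.2 and 22.1 TPM in controls. Its treated values of 21.3, 19.3 and 17.9 TPM overlapped them. The log2 fold change was 0.04 ± 0.058 (edgeR adjusted p = 0.684), and the 95% interval of the fold, 0.925 to 1.15, leaves room for small changes in either direction. Its sign turned negative with upper-quartile scaling (-0.0095) and on total counts (-0.028). The exons of Irf3 share 2.56% of their bases with Bcl2l12 on the opposite strand, and no source used here states whether counting used strand.

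The ratio of Irf7 to Irf3 was 0.0558, 0.0405 and 0.0571 in controls and 1.61, 1.48 and 1.55 with interferon-gamma. Irf7 transcripts were thus a small fraction of Irf3 transcripts in untreated cells and exceeded them in each treated library (exact permutation p = 0.1, adjusted 0.1, the smallest value possible). The log2 ratio rose by 4.94 ± 0.164.

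Irf5 (NCBI Gene 27056, chromosome 6, 29526130 to 29541869, plus strand), best known for cytokine induction in myeloid cells, was low in both groups and rose modestly. It was at 4.28, 5.21 and 5.08 TPM in controls and 6.4, 5.6 and 6.39 TPM with interferon-gamma. The groups did not overlap, but the gap between them was small beside the spread. The fold change was 1.39 (95% interval 1.17 to 1.65), a log2 fold change of 0.48 ± 0.072 (edgeR adjusted p = 0.00229), and the rise was not called against a null of at most 1.5-fold (glmTreat adjusted p = 1). Of its exon bases 14.1% are shared with Tnpo3 on the opposite strand, which had a log2 fold change of -0.03.

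Irf9 (NCBI Gene 16391, chromosome 14, 55603985 to 55610030, plus strand) supplies the DNA-binding part of ISGF3. It was at 5.92, 6.71 and 5.63 TPM in controls and at 44.5, 44.4 and 44.7 TPM with interferon-gamma. The treated libraries were nearly equal and all above the controls. The fold change was 7.87 (95% interval 6.95 to 8.93), a log2 fold change of 2.98 ± 0.08 (edgeR adjusted p = 3.16e-18). Of its exon bases 2.28% are shared with Rnf31 on the same strand, which itself rose (log2 fold change 1.35).

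Stat2, the ISGF3 subunit that IRF9 binds, rose further than Irf9, by 3.76 on the log2 scale. The ratio of Irf9 to Stat2 in TPM was 1.07, 1.21 and 0.889 in controls and 0.581, 0.616 and 0.644 with interferon-gamma. The transcripts were near parity before treatment, and Irf9 was the scarcer in every treated library. The log2 ratio fell by 0.77 ± 0.137 (exact permutation p = 0.1, adjusted 0.1, again the smallest value possible).

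Batf2 (NCBI Gene 74481, chromosome 19, 6164397 to 6172476, plus strand) showed the largest change of the 8. It had 2, 0 and 2 counts in the controls and 1525, 1525 and 1235 counts with interferon-gamma. In TPM this was 0.15, 0 and 0.13 against 105, 99.5 and 87.98, from next to nothing to a level above 88.7% of all genes. The depth-scaled ratio of the group totals, 4285 against 4 counts, was 1140 (exact 95% interval 445 to 4190, counting error only). The fitted log2 fold change of 10.02 (edgeR adjusted p = 8.83e-21) depends on how the near-zero controls are handled, and it placed Batf2 10th among all genes tested and 1st among the 1000 annotated transcription factors. Its exons share 2.02% of their bases with Arl2 on the opposite strand, whose log2 fold change was 0.33.

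Nmi (NCBI Gene 64685, chromosome 2, 51948498 to 51973489, minus strand) rose from 2.39, 2.08 and 2.6 TPM in controls to 11.9, 12.8 and 13.4 TPM. The groups were well apart. The fold change was 5.85 (95% interval 4.49 to 7.51), a log2 fold change of 2.55 ± 0.131 (edgeR adjusted p = 1.04e-11). Ifi35, the partner of NMI, was more abundant and rose by a similar amount: 29.5 TPM in controls and 141 TPM with interferon-gamma, a log2 fold change of 2.37 (adjusted p = 3.88e-18).

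**Figure D2:**
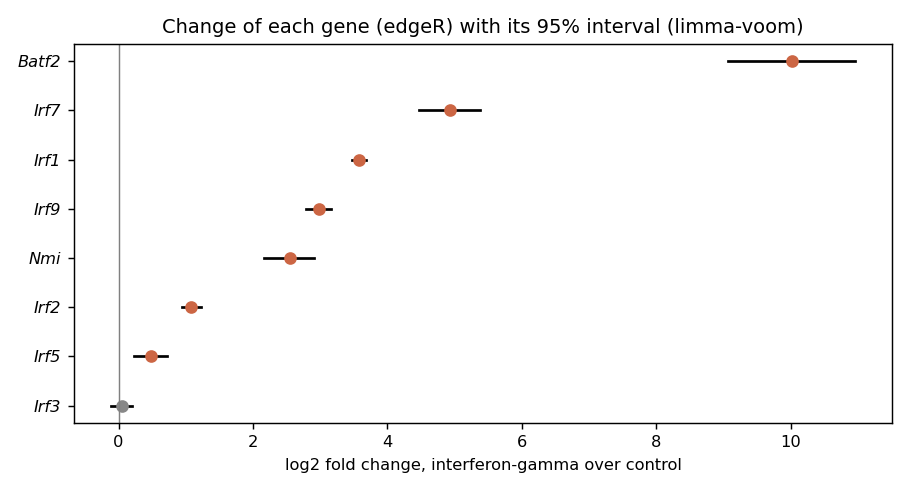
Log2 fold change of each gene, interferon-gamma over control (point, edgeR; orange where called, grey where not), with the 95% interval from limma-voom (line). Batf2 (10.02) and Irf7 (4.93) have the largest changes and wide intervals, and the interval of Irf3 (-0.11 to 0.20) includes 0.

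The order of the 8 genes by level per length changed with treatment. In controls it ran Irf1 (84.0 TPM), Irf3 (20.6), Irf2 (15.6), Irf9 (6.09), Irf5 (4.86), Nmi (2.36), Irf7 (1.06) and Batf2 (0.0933), and no gene's range over libraries overlapped that of its neighbour. With interferon-gamma it ran Irf1 (929 TPM), Batf2 (97.6), Irf9 (44.5), Irf2 (30.9), Irf7 (30.2), Irf3 (19.5), Nmi (12.7) and Irf5 (6.13). There the ranges of Irf2 and Irf7 overlapped, and those 2 neighbours did not differ beyond their spread. Batf2 moved from the last place to the second, while Irf3 went from the second to the sixth with little change in its own level.

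Summed over the 8 IRF rows of the tables, IRF transcripts rose from 132 ± 3.33 to 1060 ± 17.97 TPM (SD, n = 3). Irf1 made up 65.2%, 62.6% and 62.9% of that sum in the controls and 87.3%, 87.8% and 87.8% of it after treatment. Irf3 fell from 15.6% ± 0.656 to 1.84% ± 0.137 of the sum and Irf2 from 11.8% ± 0.465 to 2.91% ± 0.102. Irf7 went from 0.797% ± 0.151 to 2.85% ± 0.296. The share of Irf9 was 4.61% ± 0.521 in controls and 4.2% ± 0.0762 with interferon-gamma, and its library values overlapped, so Irf9 grew about as the sum did. Irf8 has no row and is not part of the sum, and these shares were not tested.

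**Figure D3:**
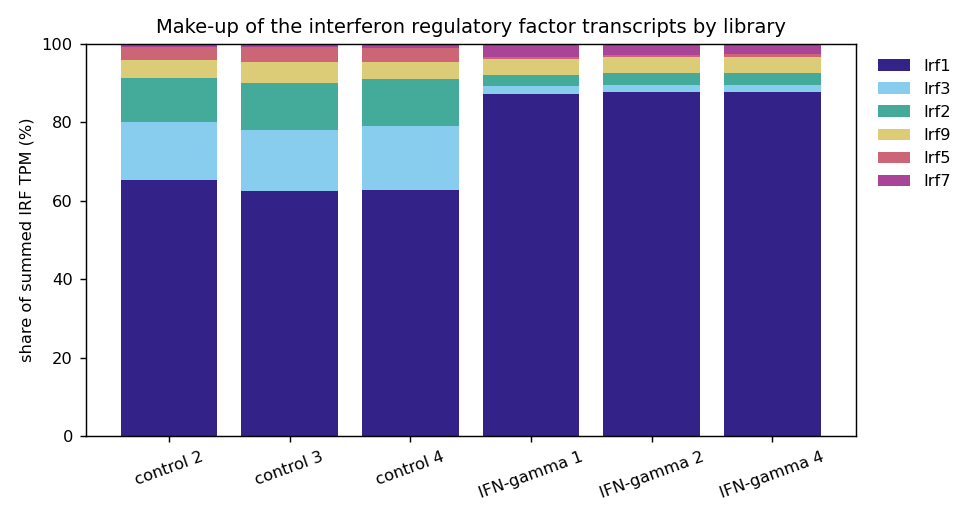
Share of each factor in the summed TPM of all IRF rows (vertical axis, percent) for each library (horizontal axis). Irf1 fills 62.6% to 65.2% of the bars of the control libraries and 87.3% to 87.8% of those of the treated libraries.

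Of the IRFs outside the 8 genes, Irf4, a factor of lymphocytes, had 2 counts summed over controls and 25 summed over treated libraries, a ratio of 13.3 (exact 95% interval 3.32 to 116, counting error only), and was too low to be tested. Irf8 has no row in the tables analysed here, so its level with interferon-gamma is not known. The leukocyte factor Spi1, a partner of IRF4 and IRF8, was at or below 0.0533 CPM in each library.

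All 3 genes of the IRF2-binding protein family fell. Of their products, IRF2BP1 and IRF2BP2 are corepressors named for their contact with IRF2. Irf2bp2 was at 60.6, 54.1 and 56.5 CPM in controls and 33.8, 34.5 and 30.2 CPM with interferon-gamma (log2 fold change -0.80 ± 0.076, edgeR adjusted p = 3.53e-09). Irf2bp1 was at 43.3, 41.1 and 40.8 against 33.1, 33.2 and 28.2 CPM (log2 fold change -0.40, adjusted p = 7.97e-05). Irf2bpl was at 50.4, 45.5 and 46.6 against 40.5, 41.6 and 31.5 CPM (log2 fold change -0.32, adjusted p = 0.00337). Without treated replicate 4, the lowest library of Irf2bpl, its log2 fold change was -0.21 (adjusted p = 0.0126). The groups did not overlap for any of the 3, beside 48.0% of all genes in either direction, and 18.1% of all genes were called lower.

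Upstream of the factors, 5 of 9 receptor chains, kinases and STATs rose and 3 fell, with a median log2 fold change of 0.17, beside 19.9%, 18.1% and 0.0095 over all genes. On total counts 4 rose and 4 fell. Of these, Jak1 (log2 fold change 0.17, adjusted p = 0.0105) lost its call on total counts (0.117), with upper-quartile scaling (0.0677) and without control replicate 4 (0.106). Tyk2 (log2 fold change -0.24, adjusted p = 0.0227) lost its call without control replicate 2 (0.0765) and without treated replicate 4 (0.123). Ifnar2, a chain of the type I interferon receptor, rose from 48.2 to 104 CPM (log2 fold change 1.11, adjusted p = 3.22e-12). This list was chosen with earlier results of these data known, as were the IRF2-binding proteins above and the adaptors and partners below. Their counts are therefore a description.

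Of 17 adaptors, sensors and kinases that lead to IRF3, IRF5 or IRF7, 8 rose and 2 fell, with a median log2 fold change of 0.21, beside the same shares and median over all genes. On total counts 6 rose and 2 fell. The RNA sensor gene Ddx58 rose from 33.1 to 129 CPM (log2 fold change 1.96, adjusted p = 2.33e-17). Tmem173, which encodes the adaptor STING, rose from 24.7 to 102 CPM (2.05, adjusted p = 8.08e-17), and the Toll-like receptor adaptor Myd88 rose from 23.7 to 85.8 CPM (1.86, adjusted p = 2.21e-16). Tbk1, Traf3 and Mavs are named with their values known. The kinase gene Tbk1 had a log2 fold change of 0.34 (edgeR adjusted p = 0.000182). The 2 that fell were Traf3 (log2 fold change -0.28) and the mitochondrial adaptor Mavs (-0.24).

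Of 12 partners of BATF2 and NMI that could be tested, 7 were called higher and 2 lower, with a median log2 fold change of 0.36, beside 19.9%, 18.1% and 0.0095 over all genes. Batf3 is among the 7 and passed the low-count filter only through the treated libraries, so it could be called in 1 direction only. On total counts 6 were called higher. Batf3, another BATF protein, went from 0.372, 0.479 and 0.316 CPM to 3.17, 3.91 and 3.06 CPM (log2 fold change 3.10, adjusted p = 2.33e-09), a far lower level than Batf2 reached. Fosl2 rose from 109 to 177 CPM (0.70, adjusted p = 4.83e-10). Jun, Junb and Jund, which can pair with BATF proteins and were named after their values were seen, rose by 0.61, 0.46 and 0.48 on the log2 scale from control levels of 89.2, 131 and 101 CPM. The 2 that fell were Fosl1 (log2 fold change -0.43) and Myc (-0.60). Batf has no row in the tables analysed here.

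Genes that textbooks place under IRF1 rose in 13 of 13, with a median log2 fold change of 5.37, and those placed under ISGF3 in 10 of 10 tested, with a median of 4.45. Over all genes tested 19.9% were called higher, and the median was 0.0095. Of the 13 ISGF3 genes listed, Mx1 and Mx2 had no row. Rsad2 was too low to be tested (0.106 CPM in controls and 0.394 CPM with interferon-gamma). The lists were written with earlier results of these data known, and 3 genes of each passed the low-count filter only through the treated libraries, so these counts are a description. Gbp2, a GTPase, had a log2 fold change of 8.21, the peptide transporter Tap1 of 6.81 and the GTPase Ifi47 of 6.60. Cxcl10, a T cell chemokine, had a log2 fold change of 5.49, Oasl2 of 5.20 and the ubiquitin-like Isg15 of 2.91. Of the 7 type I and III interferon genes listed, only Ifna1 and Ifne had a row, and both were at 0 in every treated library. Neither exceeded 0.107 CPM in a control. A gene at 0 in all controls has no row here, so the treated levels of the other interferon genes listed are not known.

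**Figure D4:**
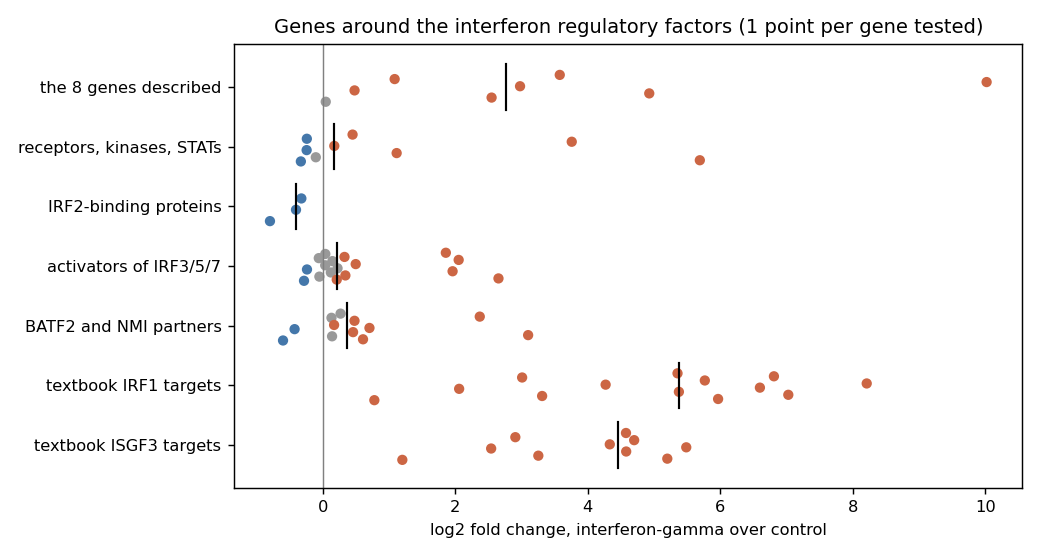
Log2 fold change, interferon-gamma over control (horizontal axis), for each gene tested in the 8 genes described and the 6 surrounding lists (orange called higher, blue called lower, grey neither; vertical bar, median; vertical scatter within a row has no meaning). The IRF2-binding proteins lie below 0 (median -0.40), and the textbook targets of IRF1 and ISGF3 lie above 0 (medians 5.37 and 4.45).

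Set among transcription factors, the members spread from the first place to the middle ranks by change. Of the 1000 tested genes annotated as transcription factors in the authors' deposited table, 16.3% were called higher, 19.9% lower and 3% higher by at least 2-fold, and their median log2 fold change was -0.03. By log2 fold change Batf2 ranked 1st, Irf7 4th, Irf1 6th, Irf9 13th, Irf2 29th, Irf5 78th and Irf3 378th. Nmi carries no such annotation. By level, Batf2 moved from the 997th to the 51st place, Irf7 from the 917th to the 184th and Irf9 from the 618th to the 124th. Batf2 passed the low-count filter only through its treated libraries, so its place in controls was bound to be low.

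For each member that was called, the 2 nearest genes outside the lists were sought by Euclidean distance over the 6 mean-centred log2 CPM values. Those of Irf1 were Il6 (distance 0.281, log2 fold change 3.73) and the complement protease gene C1s1 (0.288, 3.75), of which Il6 reached only 6.65 CPM. Those of Irf2 were Ptpn13 (0.0985, 1.05) and Ccng2 (0.123, 1.10), and those of Irf5 were Ikzf5 (0.0558, 0.45) and Nusap1 (0.0561, 0.47). Nearest to Irf9 were Apol10b (0.136, 2.88) and Parp12 (0.148, 2.97), and to Nmi the metallothionein gene Mt2 (0.265, 2.45) and Parp3 (0.274, 2.44). Nearest to Irf7 were Oas2 (0.403, 6.37) and Gm1966 (0.45, 5.26), and to Batf2 the GTPase gene Igtp (0.663, 8.80) and Gm12185 (0.859, 8.86). Unlike the members, C1s1, Gm1966, Apol10b, Igtp and Gm12185 had some estimated counts that were not whole. Control levels were low for Il6 (0.496 CPM), Oas2 (0.0529 CPM), Gm1966 (0.371 CPM) and Gm12185 (0.3 CPM). The log2 CPM used a prior count of 2, which shrinks changes from such levels, so near genes can differ in fitted fold change. The distances were largest for Irf7 and Batf2, whose control counts were the lowest of the 8. With only 2 groups, such a profile mainly holds the size of the change, and the distances are a description.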

How the data were processed

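Libraries of 6 samples were made for the DNBSEQ platform, per the labels' protocols. The submitters' processing notes list HISAT and HISAT2 and the builds mm10 and GRCm38.p6. The counter was not given in the sources used here. Estimated counts, TPM and FPKM per gene were deposited by the authors, per the file headers. No member had a count that was not whole.

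After rounding, the test was that of edgeR 4.0.16, run in R 4.3.3 (filterByExpr with a minimum count of 10, TMM factors, glmQLFit with robust=TRUE, glmQLFTest), with Benjamini-Hochberg adjustment over all 11423 genes tested. CPM divide by the TMM-scaled library size. The SE between replicates came from log2 CPM (prior count 2). Intervals of 95% came from limma-voom (limma 3.58.1), and they cover the spread between these libraries. Levels between genes were compared in TPM, ratios by exact permutation. The test was checked on simulated data. Python 3.11.15, pandas 2.3.3, scipy 1.17.1 and matplotlib 3.10.9 made tables, ratios and figures.

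Alternatives were DESeq2 1.42.0, limma-voom, other scalings, filters, thresholds and nulls, log2(TPM + 1) and log2(TPM + 0.1) with limma, FPKM for the order of levels, a replicate block and each library left out. Leaving out libraries for the ratios was added after the data were seen. The 8 genes and all lists were chosen with earlier results of these data known. The rule for named genes takes the 8 members, up to 3 genes per list by smallest adjusted p, the IRF and BATF relatives and Ifi35, and the 2 nearest genes of each called member. A planned comparison of protein sequences was not run. Some genes of the lists are not reported here by name.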

Additional observations from a re-analysis of the deposited data

How the results depend on the processing

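Over 20 alternatives for each of the 8 genes, 151 of 160 log2 fold changes kept their direction and their side of the threshold. The number of members called higher stayed within 1.5 times of 7 under each alternative run, and none was called lower. The exceptions were Irf2 against a null of 2-fold, Irf5 against nulls of 1.5-fold and 2-fold, and the sign of Irf3. The log2 fold change of Irf3 was -0.0095 with upper-quartile scaling, -0.028 on total counts, -0.032 with a replicate block, -0.079 on log2(TPM + 1) and -0.083 on log2(TPM + 0.1). With each library left out it ran from -0.011 (without control replicate 3) to 0.077. The cause was not tested. Replicate numbers 2 and 4 occur in both groups, but nothing in the labels ties them to a shared culture, and deviations of same-numbered libraries correlated at 0.128 and -0.0899. The replicate block changed no other call among the 8 genes. With each library left out, the log2 fold change ran from 9.47 to 10.39 for Batf2, 4.75 to 5.05 for Irf7 and 0.43 to 0.52 for Irf5. On log2(TPM + 1) the value for Batf2 was 6.49, since the pseudocount exceeds its control level. The order of levels was the same in FPKM, and without treated replicate 1 the ranges of Irf2 and Irf7 no longer overlapped, while without treated replicate 4 the places of 2 genes were exchanged. Of 1040 results for other named genes, 987 kept direction and call, 53 lost the call and none reversed. Low control counts limit the precision for Batf2, Irf7 and Nmi.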
